A study of Nicotiana tabacum with 12 samples.

Results

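The 191 gene models described here were lower in both groups whose code begins with T, TWTR against WTR and TCR against CR, out of 25273 models measured in tobacco (Nicotiana tabacum) roots. Levels are FPKM, fragments scaled to transcript length and to the mapped fragments of a library, and every log2 difference is a difference of group means of log2(FPKM + 1), with a pseudocount of 1. A model was included when its mean over the 12 libraries was at least 5 and under 1000 FPKM, when both T-coded groups stood at least 1 lower on the log2 scale, that is 2-fold in FPKM + 1, with no overlap between libraries, and when CR minus WTR and TCR minus TWTR both lay strictly between -1 and 1. These models were thus chosen by their measured FPKM in all 4 groups, so their differences are given as a description and not as evidence for the difference between groups.

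The series holds 12 root libraries of messenger RNA, 3 in each of the groups TCR, TWTR, CR and WTR. The labels do not spell these codes out. All samples carry 1 protocol text, on seedlings raised on a common fertilizer and an NtLHT1 mutant kept for 15 days in hydroponic LN solution, and no genotype, agent, nitrogen supply or plant age could be assigned to any single group. The labels do not say whether libraries of a group came from separate plants, so any spread between them may be technical.

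LHT1, first described in Arabidopsis as a lysine and histidine transporter, is a plasma membrane carrier that brings amino acids into root and leaf cells. Plants short of nitrogen adjust both the uptake of nitrate, ammonium and amino acids at the root surface and the growth of the root itself, and much of that adjustment is seen in messenger RNA levels. Common tobacco is an allotetraploid, with a set of chromosomes from each of its parent species, and many of its genes therefore exist as near-identical copies. Each identifier consists of the prefix Nitab4.5, a scaffold number and a gene number. None comes with a name, and 0 of 25273 matched an entry of RefSeq for assembly ASM71507v2. The models are therefore described by identifier and value, with no function, sequence or pathway given to any, and neither NtLHT1 nor markers of root tissue could be looked up to check the labels.

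Taken over the 191 models, every T-coded library stood well below every library of its counterpart. The median model stood at 14.5, 15.2 and 15.3 FPKM in the TWTR libraries, against 53.4, 52.2 and 54.9 FPKM in the WTR libraries. It stood at 17.5, 18.0 and 18.7 FPKM in the TCR libraries, against 62.8, 61.3 and 64.1 FPKM in the CR libraries. The models together held 0.604% ± 0.0323 of the FPKM sum of a TWTR library and 2.05% ± 0.0388 of a WTR library (SD, n = 3 each). Their share was 0.699% ± 0.00447 in TCR and 2.33% ± 0.0991 in CR (SD, n = 3 each). In bulk roots, fewer cells of a type and less RNA per cell cannot be told apart.

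**Figure D1:**
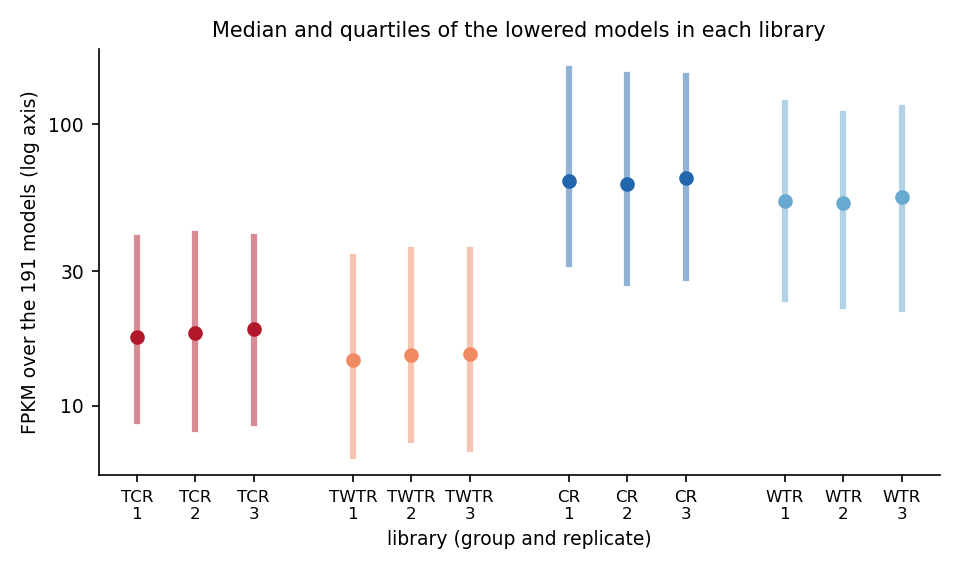
Median (point) and quartiles (bar) of FPKM over the 191 lowered models in each of the 12 libraries, on a log axis. The 6 T-coded libraries have medians between 14.5 and 18.7 FPKM and the 6 others between 52.2 and 64.1 FPKM, and libraries of 1 group lie close together.

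Absolute sequencing depth is unknown from FPKM. Depth relative to CR replicate 1, read from the commonest ratio of low values, was 1.82 in CR replicate 2 and between 0.912 and 1.14 in the other libraries. The FPKM of a library summed to between 1099061 and 1154691. Without CR replicate 2 the rule found 185 models, of which 182 were among the 191.

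The steps of the rule show how the set arose. Of 15588 models with a mean of 5 to under 1000 FPKM, 417 (2.68%) were lower by at least 1 with no overlap in TWTR against WTR, and 745 (4.78%) in TCR against CR. Both conditions were met by 225 models, which is 54.0% of the first list and 30.2% of the second. A further 16 models met the condition in TWTR against WTR but stood at least 1 higher, with no overlap, in TCR against CR, and 47 did the reverse. Of the 225 models, 34 were left out because a difference between CR- and WTR-coded groups reached 1 in size. Among those 34, CR exceeded WTR by at least 1 in 20 and TCR exceeded TWTR by at least 1 in 19, while CR was below WTR by as much in 1 and TCR below TWTR in 0.

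In the fit of the 19929 models that averaged 1 FPKM or more (limma, Benjamini-Hochberg adjusted p under 0.05), 191 of the 191 models were called lower in TWTR than in WTR, where 14.9% of all models tested were. The same number was called lower in TCR than in CR, where 22.1% of all models tested were. Every TWTR library below every WTR library, which the rule demands, was found in 21.6% of the 15588 models, and every TCR library below every CR library in 28.9%. These counts follow from the rule and nothing is read from them.

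The fall had a median log2 difference of -1.55 in TWTR minus WTR (quartiles -2.06 and -1.27) and of -1.61 in TCR minus CR (quartiles -2.03 and -1.30). Over all 15588 models of the same level range the medians were 0.035 and 0.0013. In plain FPKM the median model kept 32.6% of its WTR level in TWTR, with a range of 6.90% to 50.2%. It kept 30.9% of its CR level in TCR, with a range of 3.95% to 49.4%. In 36 models both differences were at or below -2, and in 1 both were at or below -3. At the shallow end, 51 models lay above -1.5 in both. The depth was also read by class of mean level. Models with a mean of 5 to under 10 FPKM had median differences of -1.5 in TWTR minus WTR and -1.52 in TCR minus CR. In the same order, the medians were -1.61 and -1.60 at 10 to under 50 FPKM, -1.55 and -1.82 at 50 to under 100 FPKM, and -1.58 and -1.51 at 100 to under 500 FPKM. They were -1.71 and -1.85 in the 5 models at 500 to under 1000 FPKM.

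**Figure D2:**
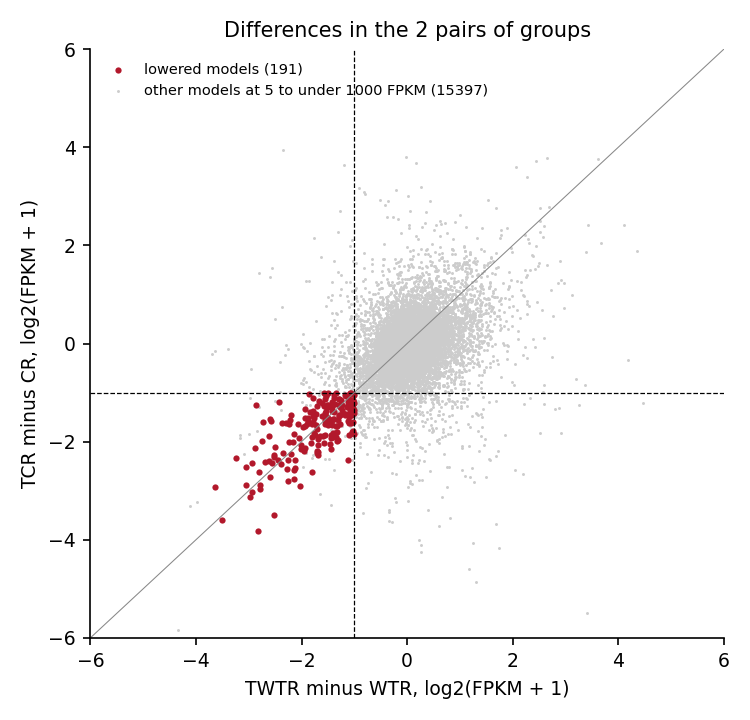
Log2 difference TWTR minus WTR (x axis) against TCR minus CR (y axis) for the 191 lowered models (red) and the other 15397 models of the same level range (grey). Dashed lines mark the threshold of -1 and the thin line equal differences. The red points spread along the line of equal differences down to -3.65 on the x axis and -3.81 on the y axis. The rule bounds their distance from that line.

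The model with the deepest mean fall was Nitab4.5_0000576g0040. It had 2.9, 3.89 and 1.46 FPKM in TWTR, against 42.22, 37.94 and 39.36 FPKM in WTR. In TCR it had 5.15, 5.17 and 6.6 FPKM, against 91.21, 71.8 and 75.48 FPKM in CR. T-coded roots thus kept 6.90% of the WTR level and 7.09% of the CR level, and the log2 differences were -3.50 and -3.60.

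Nitab4.5_0001006g0040 came next and was the model with the most negative TCR minus CR difference. It had 2.53, 5.11 and 7.66 FPKM in TCR, against 73.16, 88.55 and 76.99 FPKM in CR (log2 difference -3.81). Its TWTR libraries had 8.9, 4.34 and 7.64 FPKM, against 63, 44.19 and 55.19 FPKM in WTR (log2 difference -2.82). The 3 TCR libraries differed among themselves more than the CR libraries did in proportion, and all T-coded libraries stayed far below every WTR and CR library.

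Nitab4.5_0000021g0570 had the most negative TWTR minus WTR difference, -3.65, and was tight in every group. It had 16.22, 19.56 and 15.63 FPKM in TWTR, against 212.74, 234.7 and 228.56 FPKM in WTR. In TCR it had 27.04, 27.1 and 25.43 FPKM, against 206.08, 213.4 and 207.37 FPKM in CR (log2 difference -2.93). CR and WTR overlapped for this model, and the TCR libraries lay above the TWTR libraries.

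**Figure D3:**
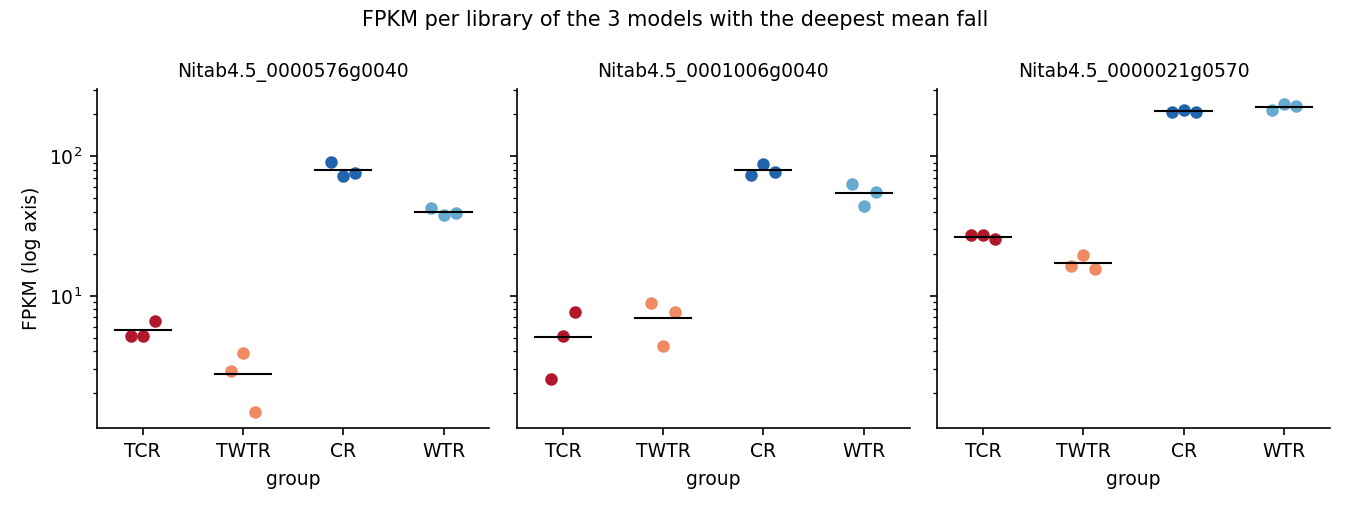
FPKM per library (points, log axis) and group means (lines, n = 3 libraries per group) of the 3 models with the lowest mean of both T differences. In each, every TCR and TWTR library lies below every CR and WTR library, from 1.46 to 27.1 FPKM against 37.94 to 234.7 FPKM.

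The set also reached into abundant transcripts. Nitab4.5_0000263g0030 was the most abundant, at 480 ± 44.7 FPKM in TWTR and 1291 ± 57.4 in WTR, and at 503 ± 26.6 in TCR and 1238 ± 169 in CR (SD, n = 3 each). It kept 37.2% and 40.7% of the WTR and CR levels, and TCR overlapped TWTR, as CR overlapped WTR. Nitab4.5_0000786g0210 averaged 369 ± 44.1 FPKM in TWTR and 1207 ± 72.4 in WTR, and 434 ± 7.66 in TCR and 1459 ± 183 in CR (SD, n = 3 each). For Nitab4.5_0001468g0070 the T-coded groups met at one level, 348 ± 7.44 FPKM in TWTR and 345 ± 17.3 in TCR, although CR at 1247 ± 51.3 FPKM stood well above WTR at 699.9 ± 49.5 (SD, n = 3 each). The 10 most abundant of the 191 models held 33.4% ± 0.415 of the set's FPKM in TCR, 33.9% ± 0.670 in TWTR, 36.0% ± 1.29 in CR and 35.7% ± 0.306 in WTR (SD, n = 3 each).

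TWTR minus WTR and TCR minus CR lay within 0.25 of each other in 87 models and within 0.5 in 147, and they were over 1 apart in 5. The fall was deeper in TCR against CR in 109 models and deeper in TWTR against WTR in 82. The Pearson correlation of these differences was 0.69 over the 191 models (Spearman 0.62) and 0.37 over all 15588 models (Spearman 0.32). The rule cut the 191 models at -1 on both axes. Its limits on CR minus WTR and TCR minus TWTR also bound how far these differences can lie apart, so nothing is read from their agreement. The pairs share no library, and models are not independent replicates.

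Subtracting the TWTR minus WTR difference from the TCR minus CR difference gives the interaction, which the same rule bounds. It was called in limma in 24 of the 191 models with a lower value, beside 17.8% of all models tested, and in 31 with a higher value, beside 11.5%. Nothing is read from these counts, which describe where the falls differ within the set.

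Among models with a deeper fall in TCR against CR, Nitab4.5_0000239g0100 differed most. It had 2.05, 2.18 and 1.5 FPKM in TCR, against 12.94, 18.38 and 11.59 FPKM in CR, so TCR kept 13.4% of the CR level. In TWTR it had 3.39, 1.72 and 2.65 FPKM, against 7.72, 5.47 and 6.97 FPKM in WTR, and TWTR kept 38.5%. TCR and TWTR overlapped, while every CR library lay above every WTR library.

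Among models with a deeper fall in TWTR against WTR, Nitab4.5_0001013g0080 differed most. It had 9.06, 8.7 and 10.35 FPKM in TWTR, against 73.12, 76.28 and 74.4 FPKM in WTR, and kept 12.6%. In TCR it had 13.85, 15.12 and 17.06 FPKM, against 37.19, 39.39 and 37.66 FPKM in CR, and kept 40.3%. None of the 4 groups overlapped, with WTR highest and TWTR lowest.

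The same order held for Nitab4.5_0000143g0160, with 9.33, 10.75 and 11.1 FPKM in TWTR, against 60.24, 58.33 and 61.63 FPKM in WTR. It had 15.8, 13.01 and 14.02 FPKM in TCR, against 31.64, 32.78 and 36.89 FPKM in CR. No groups of this model overlapped either, with WTR again highest and TWTR lowest. Nitab4.5_0000913g0050, a scarcer model, kept 11.1% of the WTR level in TWTR and 26.9% of the CR level in TCR.

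Within the set, the groups coded CR mostly stood above those coded WTR, both without and with T. CR exceeded WTR in 150 of the 191 models (78.5%, median log2 difference 0.32), and in 52.7% of all 15588 models (median 0.021). TCR exceeded TWTR in 146 models (76.4%, median 0.26), and in 47.0% of all 15588 (median -0.016). Both held at once in 118 models, 61.8%, so that the commonest order of group means was CR, WTR, TCR, TWTR. The order CR, WTR, TWTR, TCR was found in 32 models, WTR, CR, TCR, TWTR in 28 and WTR, CR, TWTR, TCR in 13. Over 3 other scalings, CR exceeded WTR in 136 to 142 models and TCR exceeded TWTR in 143 to 150. These scalings used the same libraries and the same 191 models. Since the rule used all 4 groups and bounds both differences, nothing is read from these shares or orders.

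The differences between CR- and WTR-coded groups were small beside the falls, as the rule requires. Their median size was 0.35 in CR minus WTR and 0.29 in TCR minus TWTR, against 0.23 and 0.15 over all 15588 models. In limma, CR was called higher than WTR in 92 of the models, where 23.5% of all models tested were, and lower in 19, where 16.6% were. TCR was called higher than TWTR in 68, where 7% were, and lower in 5, where 6.69% were. With only TCR and TWTR in the fit the count of 68 was 44. When the rule was applied anew, the count of 5 became 3 of 193 models without TCR replicate 1. It became 3 of 188 models without TWTR replicate 3. Every CR library lay above every WTR library in 114 models (59.7%), where 29.4% of the 15588 did, and below in 24 (12.6%), where 24.2% did. Every TCR library lay above every TWTR library in 89 models (46.6%), where 16.7% did, and below in 11 (5.76%), where 19% did. The rule bounds these differences, so nothing is read from the counts. The Pearson correlation between CR minus WTR and TCR minus TWTR, which share no library, was 0.24 over the 191 models and 0.024 over all 15588. Both differences are confined by the rule in the 191 models and not in the 15588, so nothing is read from these correlations.

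**Figure D4:**
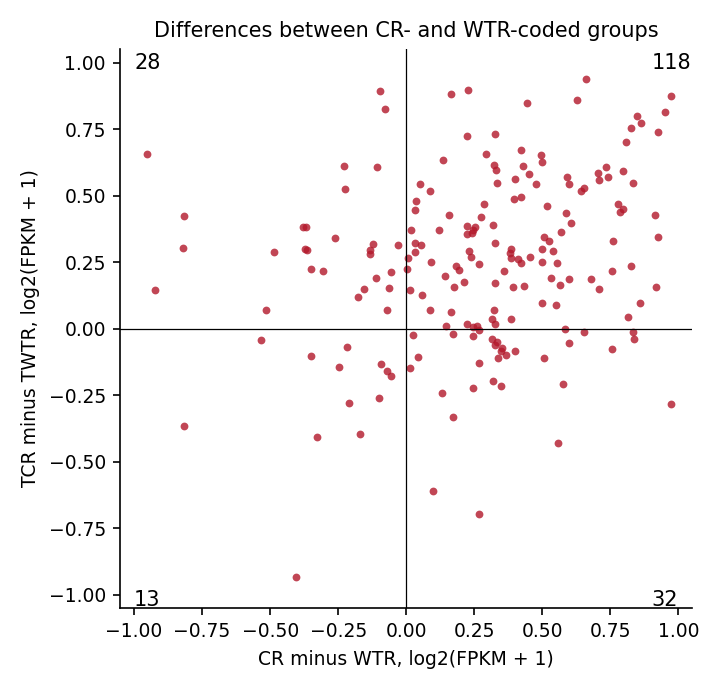
Log2 difference CR minus WTR (x axis) against TCR minus TWTR (y axis) for the 191 lowered models. The number in each corner counts the models of that quadrant: 118 above 0 on both axes, 28 above 0 on the y axis alone, 32 above 0 on the x axis alone and 13 below 0 on both.

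The models at the ends of these ranges show how the order varied. Nitab4.5_0002377g0030 had the highest TCR minus TWTR difference (0.94), with 27.77, 24.26 and 28.61 FPKM in TCR, against 11.86, 19.33 and 10.71 FPKM in TWTR. Its CR libraries, at 164.7, 131.58 and 144.99 FPKM, also lay above its WTR libraries, at 113.91, 74.81 and 92.11 FPKM. Nitab4.5_0001416g0020 followed, with 3.8, 2.47 and 5.02 FPKM in TCR, against 2.1, 1.27 and 1.21 FPKM in TWTR (log2 difference 0.90). Its CR and WTR libraries overlapped, at 11.18 to 16.76 FPKM and 9.64 to 13.78 FPKM.

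At the other end, Nitab4.5_0000104g0070 had 29.42, 25.1 and 26.44 FPKM in TCR, against 52.39, 47.65 and 57.29 FPKM in TWTR (log2 difference -0.93). It had 84.28, 84.19 and 87.08 FPKM in CR, against 117.78, 108.29 and 113.32 FPKM in WTR. WTR-coded groups were thus the higher ones with and without T. Nitab4.5_0001842g0060, with 257.41, 253.18 and 253.51 FPKM in CR against 474.44, 482.16 and 496.57 FPKM in WTR, had T-coded levels close to each other, at 87.27, 82.38 and 92.05 FPKM in TCR against 71.88, 85.83 and 79.21 FPKM in TWTR. Those T-coded groups overlapped.

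The rule demands a mean of at least 5 FPKM and no overlap in both pairs, which bars scarce models and limits noise. Level and spread of the set are therefore given as a description. The mean over 12 libraries had a median of 36.8 FPKM (range 5.27 to 878), beside 24.7 FPKM for all 15588 models. Of the 191 models, 95 lay at 10 to under 50 FPKM and 40 at 100 FPKM or more, which is 20.9% of the set beside 13.8% of the 15588. The pooled SD between libraries of a group had a median of 0.14 on the log2 scale in the set and 0.12 over all 15588. In the set the median SD was 0.112 in TCR, 0.169 in TWTR, 0.105 in CR and 0.087 in WTR. Over all 15588 models it was 0.084, 0.119, 0.111 and 0.096 in the same order. The spread of the set was thus larger in the T-coded groups and slightly smaller in CR and WTR. The 15588 models were not matched to the set for level within each group, and the rule bars overlap. Nothing is therefore read from this comparison of spread. The lowest WTR library exceeded the highest TWTR library by at least 1 on the log2 scale in 142 models. The lowest CR library exceeded the highest TCR library by as much in 157. The rule demands falls of at least 1 without overlap, so nothing is read from these gaps, which were not counted over all 15588 models.

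Loss of all signal was rare in the set, for which the rule demands a mean of at least 5 FPKM. Zeros were not counted over all 15588 models for comparison. Only 1 of the 191 models had a value of 0, Nitab4.5_0000164g0200, in 1 library. It had 1.4, 0 and 1.41 FPKM in TWTR, against 7.76, 6.13 and 9.05 FPKM in WTR. In TCR it had 1.83, 2.3 and 0.82 FPKM, against 11.5, 11.27 and 14.51 FPKM in CR, and the T-coded groups lay apart from the others throughout. A mean under 5 FPKM in TWTR or TCR was found in 33 models, for which the log2(FPKM + 1) scale understates the fall most.

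Identifiers of the set were spread over 170 scaffold numbers, of which 152 held 1 model, 15 held 2 and 3 held 3. Some nonetheless carried neighbouring gene numbers. A neighbour 1 step (10 in the gene number) away was listed for 176 of the 191 models, and in 10 of these (5.68%) a neighbour belonged to the set too. Among 14151 other models of the level range with a listed neighbour, 162 (1.14%) had one in the set. At 2 steps (20 in the gene number) the shares were 10 of 163 (6.13%) and 142 of 13297 (1.07%). In the mirror set, with both T-coded groups higher by the same limits, the shares were 9 of 107 (8.41%) at 1 step, beside 0.605% of other models, and 6.32% at 2 steps, beside 0.666%, so the lowered models were not alone in this. None of these differences in share was tested. The 162 neighbours at 1 step that were outside the set and met the level condition had median differences of 0.024 in TWTR minus WTR and -0.010 in TCR minus CR, beside 0.040 and 0.0069 over all 15397 models outside the set. Both differences were at or below -0.5 in 10 of these neighbours (6.17%) and in 519 of the 15397 (3.37%).

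The pair of adjacent models with the deepest falls was Nitab4.5_0001006g0040, described above, and Nitab4.5_0001006g0050. The second of these had 1.24, 0.51 and 0.55 FPKM in TCR, against 11.52, 22.8 and 23.86 FPKM in CR, and kept 3.95%, the lowest share of the set. In TWTR it had 2.52, 0.53 and 3.16 FPKM, against 17.28, 14.75 and 13.75 FPKM in WTR. Over the 12 libraries the log2 levels of the pair correlated at 0.95, which includes the group differences that the rule selected. The next listed neighbour, Nitab4.5_0001006g0030, was not lowered, with differences of 0.99 in TWTR minus WTR and 0.87 in TCR minus CR.

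Another scaffold number held 3 models of the set, all abundant, among them Nitab4.5_0000786g0210 above. Nitab4.5_0000786g0230 had 148.56, 176.93 and 130.96 FPKM in TWTR, against 834.7, 781.57 and 879.42 FPKM in WTR. In TCR it had 220.18, 215.81 and 204.28 FPKM, against 1261.91, 1017.14 and 1072.9 FPKM in CR. Both pairs were far apart, with 18.3% and 19.1% of the level kept.

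Its neighbour Nitab4.5_0000786g0240 had 68.08, 87.15 and 83.55 FPKM in TWTR, against 738.95, 748.8 and 778.93 FPKM in WTR, and kept 10.5%. In TCR it had 147.05, 140.4 and 135.57 FPKM, against 752.24, 696.99 and 701.37 FPKM in CR, and kept 19.7%. Here CR and WTR overlapped, while TCR lay above TWTR. Between these models and Nitab4.5_0000786g0210, the model Nitab4.5_0000786g0220 had differences of -0.72 in TWTR minus WTR and 1.04 in TCR minus CR. Nitab4.5_0000786g0200, with differences of -2.14 and -1.80, missed the set only by its mean of 4.24 FPKM.

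In the third pair, Nitab4.5_0000166g0090 and Nitab4.5_0000166g0100, the falls differed in depth. The first had 71.68, 59.81 and 77.52 FPKM in TWTR, against 145.45, 133.82 and 155.09 FPKM in WTR, with 48.1% kept. The second had 6.63, 5.09 and 3.89 FPKM in TWTR, against 47.67, 44.17 and 49.29 FPKM in WTR, with 11.1% kept. In TCR against CR they kept 37.6% and 10.4%. Whether adjacent models are near-identical copies that share reads was not tested.

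**Figure D5:**
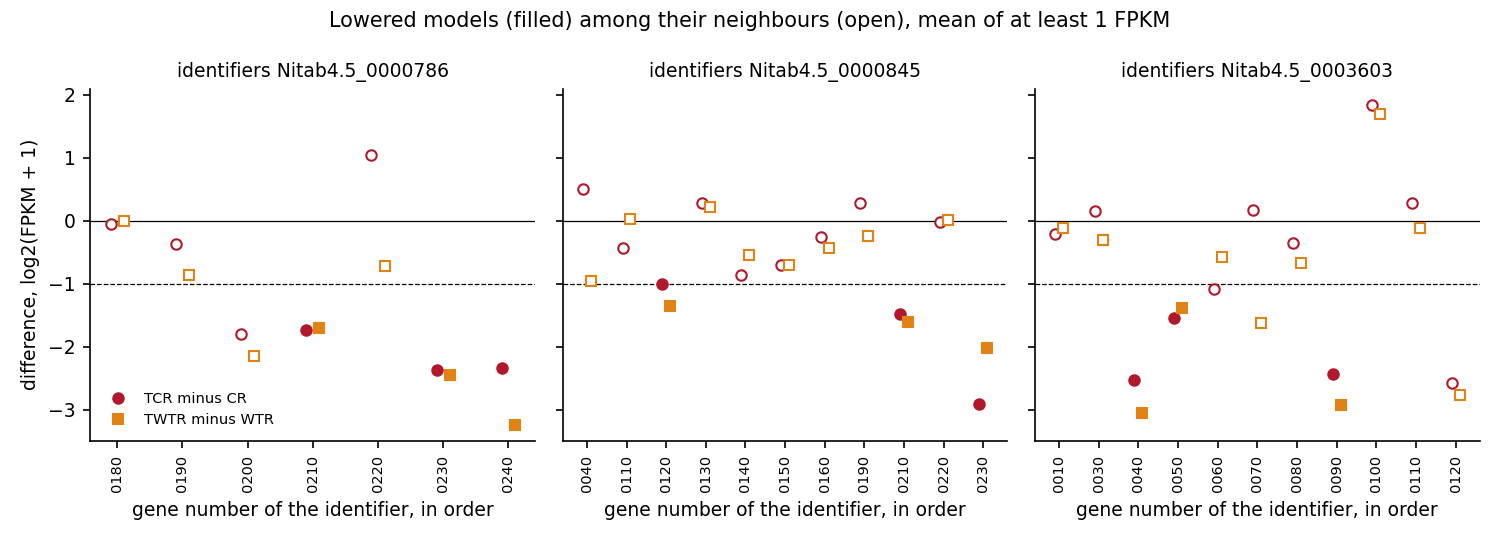
Log2 differences TCR minus CR (circles) and TWTR minus WTR (squares) along the identifier order of the 3 scaffold numbers that hold 3 lowered models each (filled), with neighbouring models of at least 1 FPKM (open). These scaffold numbers were chosen after their values were seen. Filled symbols reach -3.24. Open symbols lie on either side of 0, from -2.76 (Nitab4.5_0003603g0120, with a mean of 4.04 FPKM) to 1.84 (Nitab4.5_0003603g0100).

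At the edge of the rule, values inside and outside were almost the same. Nitab4.5_0001170g0190 was inside with a TWTR minus WTR difference of -1.0002, at 67.96, 93.93 and 66.32 FPKM in TWTR against 144.55, 148.5 and 161.1 FPKM in WTR. Nitab4.5_0000845g0120 was inside with a TCR minus CR difference of -1.001, at 9.75, 5.32 and 8.53 FPKM in TCR against 18.96, 15.03 and 15.22 FPKM in CR. Nitab4.5_0003463g0060 was outside at 33.41, 26.78 and 26.52 FPKM in TCR against 54.29, 59.23 and 62.16 FPKM in CR, and Nitab4.5_0001239g0110 at 13.69, 12.74 and 12.43 FPKM in TWTR against 26.99, 22.81 and 31.26 FPKM in WTR (log2 difference -0.996).

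The mirror of the rule, with both T-coded groups at least 1 higher and no overlap, found 123 models. Their median differences were 1.39 in TWTR minus WTR and 1.45 in TCR minus CR. CR was below WTR in 21.5% of the lowered models and in 68.3% of the mirror set (median -0.19), beside 47.3% of all 15588 models. TCR was below TWTR in 23.6% of the lowered models and in 63.4% of the mirror set (median -0.22), beside 53.0% of all 15588 models. Both sets were chosen by their values in these same groups, with opposite signs and the same limits. The difference between the sets was not tested, and nothing is read from it.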

How the data were processed

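RNA was extracted with TRIzol, per the labels' protocols, and the authors sequenced it on a DNBSEQ-T7, cleaned reads with fastp, aligned them with STAR (also in the submitters' processing notes), assembled transcripts with StringTie2 and set them against known genes with Cuffcompare. The genome build, the program that gave the abundances and all versions were not given in the sources used here. The authors deposited FPKM, per the file headers, for 25273 models. FPKM carries no totals, so depth is unknown, no counting interval was computed, and DESeq2, named in the submitters' design text, could not be used. A few abundant transcripts can shift all FPKM of a library.

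The rule given at the start of the results was applied to log2(FPKM + 1). The 19929 models that averaged 1 FPKM or more were fitted with limma 3.58.1 in R 4.3.3 (4 group means, 12 libraries, trend and robust options) over 5 contrasts, with Benjamini-Hochberg adjustment over all models tested and a threshold of 0.05. The procedure and the rule were run on simulated data with independent noise and equal falls planted in both T-coded groups. Those data held no planted difference between CR- and WTR-coded groups and no correlation between models. They are thus a check of the code and not of the set. The set and the rules were chosen with earlier results of these data known. Named models were the 3 deepest falls, the 3 with the most negative and the 3 with the most positive interaction, the 3 most abundant, the extremes of CR minus WTR and of TCR minus TWTR, the 3 deepest adjacent pairs, models with a 0, and those nearest the threshold. Other scalings, pseudocounts, filters and libraries left out were tried. Pathway lists by product name could not be used, since no identifier could be named.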

Additional observations from a re-analysis of the deposited data

Results flagged for a closer look

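The interaction, the test in limma of whether the TCR minus CR difference equals the TWTR minus WTR difference, passed at an adjusted p under 0.05 in 24 of the 191 lowered models with a lower value and in 31 with a higher value. Over all models tested the shares were 17.8% and 11.5%. The rule that chose the models bounds this quantity, so these are descriptions. Of the 22 named models of the set, 10 passed. The value was higher in 6 of these, that is a deeper fall in TWTR: 1.61 on the log2 scale for Nitab4.5_0001013g0080 (SE 0.115), 1.24 for Nitab4.5_0000143g0160 (SE 0.125), 1.12 for Nitab4.5_0000913g0050 (SE 0.325), 1.07 for Nitab4.5_0001842g0060 (SE 0.090), 0.90 for Nitab4.5_0000786g0240 (SE 0.113) and 0.71 for Nitab4.5_0000021g0570 (SE 0.106). It was lower in 4, that is a deeper fall in TCR: -1.26 for Nitab4.5_0000239g0100 (SE 0.295), -0.85 for Nitab4.5_0001468g0070 (SE 0.084), -0.53 for Nitab4.5_0000104g0070 (SE 0.105) and -0.35 for Nitab4.5_0000166g0090 (SE 0.119). Several of these models were named for the size of this very value.

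The call of Nitab4.5_0000913g0050 ended without TCR replicate 2 (limma adjusted p 0.0535) or CR replicate 1 (0.0536). That of Nitab4.5_0000166g0090 ended without any one TCR or CR library, without TWTR replicate 1 or 3 and without WTR replicate 1 or 2 (limma adjusted p up to 0.107). It also ended after rescaling to TPM (0.05003), with median-of-ratios scaling (0.0868), with quantile normalization (0.128) and with all models above 0 tested (0.0576).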

How the results depend on the processing

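The rule found 187 models after rescaling to TPM, 197 with median-of-ratios scaling and 191 with quantile normalization, of which 183, 188 and 182 were among the 191 reported. A pseudocount of 0.1 gave 200 models (185 shared) and one of 5 gave 144 (133 shared). Leaving out 1 library at a time gave 184 to 195. A required fall of 1.5 left 83 models, and dropping the limit on differences between CR- and WTR-coded groups gave 225. With a pseudocount of 5 the median differences of the set were -1.37 in TWTR minus WTR and -1.39 in TCR minus CR, since that scale shrinks falls of low models.

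Among the models that the rule found anew on leaving out 1 library, the calls of TCR below TWTR numbered 3 to 6. They were 3 of 193 models without TCR replicate 1 and 3 of 188 without TWTR replicate 3, beside 5 of 191 in all libraries. In the 191 models, calls of TCR above TWTR numbered 44 with only these groups in the fit, beside 68. No pairing of libraries by the replicate numbers of the titles was seen. Of 18 same-numbered pairs, 0 had deviations from their group means that correlated above 0.1 (-0.089 to 0.099). A shared effect that is weak or limited to few models could be missed this way. With the replicate block, calls in the set were 190 for TWTR below WTR and 191 for TCR below CR, 59 and 4 for TCR above and below TWTR, 86 and 18 for CR above and below WTR, and 24 lower and 29 higher in the interaction.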
